A study of Mus musculus with 6 samples.

Results

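The 10 killer lymphocyte genes followed here in T cells of mouse dorsal skin were Gzma, Gzmb, Gzmc, Prf1, Nkg7, Ccl5, Xcl1, Klrd1, Klrk1 and Fasl. They were taken by symbol from the 31053 genes of the deposited single-cell tables, and each of the 10 matched 1 row. Their transcripts were counted in 3 T cell populations that were set apart by marker genes outside the list: 1287 γδ T cells, 555 type 17 T cells and 398 αβ T cells.

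The skin came from female C57BL/6 mice of 8 to 10 weeks with no engineered allele named in the labels, and 3 groups of 2 libraries were compared. Sham mice were untreated. IMQ mice had 62.5 mg of a 5% cream of imiquimod, a TLR7 agonist, put on the back daily for 4 days, which brings on psoriasis-like inflammation. IMQ+SHP099 mice had the same cream and in addition 10 mg/kg SHP099, which blocks the phosphatase SHP2 allosterically, by gavage each day. Each library pooled unsorted cells of several mice, so the library is the replicate (n = 2 per group) and the p-values measure only the spread between libraries.

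Cytotoxic lymphocytes store perforin and granzymes in secretory granules and release them onto a target cell, where perforin opens the way for the granzymes, a family of serine proteases. Lectin-like receptors such as NKG2D and the CD94 heterodimers sense stress ligands and MHC class I-like molecules on the target, and the same cells release chemokines that draw in dendritic cells and further lymphocytes. In mouse skin the best-known carriers of this equipment are the dendritic epidermal γδ T cells, natural killer (NK) cells and CD8 T cells, whereas type 17 γδ T cells of the dermis are known for IL-17 and not for killing.

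The libraries held 7567 to 10746 cell barcodes, of which 7382 to 10293 were kept, with totals of 53913865 to 188283327 UMIs per library and a median of 5645 to 18264 UMIs per kept cell (a UMI marks 1 captured molecule). Any 2 libraries shared 14 to 43 barcode sequences. T cells were few. The γδ population numbered 372 and 140 cells (Sham), 256 and 55 (IMQ) and 338 and 126 (IMQ+SHP099), always in the order of replicates 1 and 2. Type 17 cells numbered 13 and 69, then 249 and 68, then 17 and 139, and αβ cells numbered 44 and 113, then 105 and 49, then 20 and 67.

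The names of the populations were checked against markers. Of γδ cells, 76.6% and 61.4% (Sham), 39.1% and 38.2% (IMQ) and 40.8% and 34.1% (IMQ+SHP099) held a UMI of Trdv4. Epidermal γδ T cells carry this V delta segment, but it was also found in type 17 cells here. The make-up of the γδ population thus differed between Sham and the treated libraries, though the Trdv4 share does not measure epidermal cells alone. Il17a, which the type 17 rule uses, was found in 42.0% to 75.9% of type 17 cells, and Trdc, which it does not use, in 69.2% to 88.2% of them. The αβ population was mixed: cells with a Foxp3 UMI, a mark of regulatory T cells, made up 18.2% and 40.7% of it (Sham), 8.57% and 6.12% (IMQ) and 15.0% and 10.4% (IMQ+SHP099). Cells with at least 2 UMIs over a list of 7 NK genes were 13.6% and 7.96% of αβ cells in Sham and 20% to 24.5% in the 4 treated libraries.

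The promoters of the genes that carry most of the results below are shown first, as the 250 bases before the RefSeq start of each gene (GRCm38.p6, printed 5′ to 3′ along the gene's strand). Capitals mark TGTGGT or its reverse complement ACCACA, the core letters of the RUNX motif, since RUNX factors are known regulators of killer genes. The windows are chr10:61297586-61297835 (plus strand) for Prf1, chr7:43436888-43437137 (plus) for Nkg7, chr1:164935523-164935772 (minus) for Xcl1, chr14:56234658-56234907 (minus) for Gzmc and chr14:56262335-56262584 (minus) for Gzmb.
Prf1: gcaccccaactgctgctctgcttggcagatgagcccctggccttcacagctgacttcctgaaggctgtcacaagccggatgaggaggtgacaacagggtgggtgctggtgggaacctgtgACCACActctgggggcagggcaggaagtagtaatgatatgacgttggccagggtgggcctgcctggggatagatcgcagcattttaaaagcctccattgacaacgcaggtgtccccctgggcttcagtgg
Nkg7: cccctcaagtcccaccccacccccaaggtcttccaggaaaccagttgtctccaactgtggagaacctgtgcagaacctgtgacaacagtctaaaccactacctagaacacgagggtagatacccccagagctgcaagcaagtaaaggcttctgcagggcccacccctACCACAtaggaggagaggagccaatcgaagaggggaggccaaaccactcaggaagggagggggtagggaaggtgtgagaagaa
Xcl1: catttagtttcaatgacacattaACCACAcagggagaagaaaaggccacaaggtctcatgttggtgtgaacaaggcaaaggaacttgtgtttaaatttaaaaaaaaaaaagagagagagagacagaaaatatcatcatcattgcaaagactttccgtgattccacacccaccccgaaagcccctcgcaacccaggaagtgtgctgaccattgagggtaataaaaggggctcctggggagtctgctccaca
Gzmc: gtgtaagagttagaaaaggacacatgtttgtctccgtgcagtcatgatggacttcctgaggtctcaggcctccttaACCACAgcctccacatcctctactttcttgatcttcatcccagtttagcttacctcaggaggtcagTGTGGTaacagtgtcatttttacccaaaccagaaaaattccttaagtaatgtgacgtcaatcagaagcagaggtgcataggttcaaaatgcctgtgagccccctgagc
Gzmb: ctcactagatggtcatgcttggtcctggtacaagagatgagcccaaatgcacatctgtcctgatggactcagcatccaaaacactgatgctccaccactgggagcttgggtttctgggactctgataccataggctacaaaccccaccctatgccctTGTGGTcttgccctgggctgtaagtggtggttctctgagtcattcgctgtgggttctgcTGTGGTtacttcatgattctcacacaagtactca
RefSeq windows were found for 8 of the 10 genes, and Ccl5 and Klrd1 are named only. The RUNX letters stood in 7 of these 8 windows, against 14.0% of all 32851 promoter windows of the same length searched on both strands. Gzmc and Gzmb each held the letters at 2 places, beginning 174 and 108 bases before the start in Gzmc and 93 and 34 bases before it in Gzmb. GGTGTGA or TCACACC, letters of the T-box motif, stood in 2 of the 8 (Xcl1 and Nkg7) against 3.33% of all windows. Such matches describe the letters and are not binding sites. Gzmc and Gzmb are neighbours in the granzyme cluster of chromosome 14 (Gzmc at 56231441 to 56234656, Gzmb at 56258838 to 56262260, minus strand), and Gzmc has close relatives in that cluster between which 3′ reads may be split, so its counts are less certain than those of the other genes.

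The 10 genes did not lie in the same cells. Of all UMIs of Gzma in kept cells, 68.7% fell in NK cells (CD3-negative, with at least 2 UMIs over the NK list), as did 58.9% of the UMIs of Ccl5 and 45.6% of those of Gzmb. Over the 6 libraries pooled, the γδ population held 38.4% of the UMIs of Nkg7, 37.4% of Xcl1, 36.0% of Klrd1, 33.0% of Klrk1 and 36.8% of Prf1. These shares differed widely between libraries: for Xcl1 they ran from 5.79% to 68.9%, highest in Sham replicate 1 and lowest in IMQ replicate 2. The γδ cells held more UMIs than the NK cells in 3 of 6 libraries for Nkg7, Xcl1 and Prf1, in 4 for Klrd1 and in 5 for Klrk1, and in IMQ replicate 2 the NK cells held more of each of them. Gzmc lay for 44.7% in cells of no named population. Fasl, the death ligand, gave 164 UMIs in total, which is too few for a comparison. Keratinocytes held at most 3.7 CPM (UMIs per 1000000 UMIs of the summed cells, the unit of every level below) of any of them in any library. Their median depths were 10562.5 to 37580 UMIs per cell, against 1239 to 3968 in γδ cells.

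**Figure D1:**
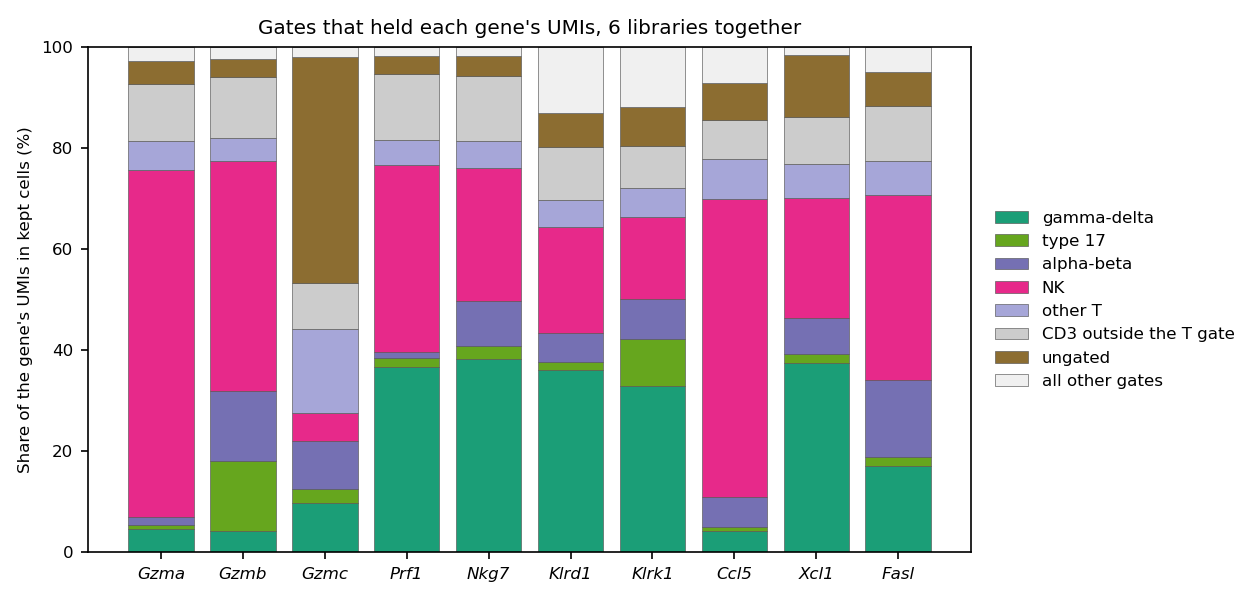
Share of each gene's UMIs (percent, vertical axis) found in each population, over the kept cells of all 6 libraries. Each bar is 1 of the 10 genes and the colours are the populations. Gzma, Ccl5 and Gzmb have their largest block in NK cells and Gzmc in cells of no named population. The pooled γδ blocks, such as 38.4% for Nkg7, weight the libraries by their UMIs, and in IMQ replicate 2 the NK cells held more of Nkg7, Xcl1, Klrd1 and Klrk1 than the γδ cells.

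The first comparison asked how the T cell populations differed from one another within the same libraries. γδ cells had higher Prf1, Klrd1 and Klrk1 and lower Gzmb than αβ cells, and type 17 cells had lower Nkg7, Xcl1, Ccl5 and Klrd1 than both. UMIs were summed per library and population and tested with edgeR's quasi-likelihood test with the library as a block (Benjamini-Hochberg adjustment over 6756 genes). Of the 9 genes of the list that passed the filter on low counts, 4 differed between γδ and αβ cells, where 21.5% of all genes did. Lower in type 17 than in αβ cells were 5 of the 9, where 3.82% of all genes were, and higher in γδ than in type 17 cells were 7 of the 9, where 13.5% of all genes were. In such sums, a smaller share of cells that carry a gene and less RNA per carrying cell cannot be told apart.

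Prf1, the pore-forming perforin, had the largest log2 difference between γδ and αβ cells among the 9 genes tested. Its level there was 266 and 386 CPM (Sham), 129 and 117 (IMQ) and 158 and 147 (IMQ+SHP099). In αβ cells it ranged from 2.90 to 58.9 and in type 17 cells from 0 to 47.5 over the 6 libraries, so that every γδ sum lay above every αβ and type 17 sum. The log2 fold difference was 3.601 ± 0.54 (SE) against αβ cells (adjusted p = 0.000114) and 3.95 ± 0.51 against type 17 cells (adjusted p = 2.31e-05). Klrd1 encodes CD94, the partner chain of NKG2 receptors, and it was 1.59 ± 0.45 higher on the log2 scale in γδ than in αβ cells (adjusted p = 0.0163) and 4.04 ± 0.55 higher than in type 17 cells (adjusted p = 3.5e-05). Klrk1 encodes NKG2D and was 1.03 ± 0.28 higher in γδ than in αβ cells (adjusted p = 0.0137) and 1.95 ± 0.30 higher than in type 17 cells (adjusted p = 0.000122). Without a limit on genes of other lineages, Klrd1 (adjusted p = 0.0554) and Klrk1 (adjusted p = 0.0715) no longer passed against αβ cells. Nkg7 (3.38 ± 0.44, adjusted p = 2.42e-05), Xcl1 (3.85 ± 0.85, adjusted p = 0.00279) and Ccl5 (4.62 ± 1.07, adjusted p = 0.00392) were also higher in γδ than in type 17 cells.

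Gzmb, the aspartate-cleaving granzyme B, went the other way. In γδ cells it stood at 13.6 and 15.4 CPM (Sham), 49.0 and 379 (IMQ) and 44.3 and 453 (IMQ+SHP099). Its level in αβ cells was 1192 and 265.5 (Sham), 278 and 537 (IMQ) and 1505 and 1095 (IMQ+SHP099), and in each library the αβ sum was the higher one. The log2 difference between γδ and αβ cells was -3.10 ± 0.66 (edgeR, adjusted p = 0.00221). The high γδ sums came from few cells: the 5 highest cells held 100% of the Gzmb UMIs of IMQ replicate 2 and 96.5% of those of IMQ+SHP099 replicate 2.

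**Figure D2:**
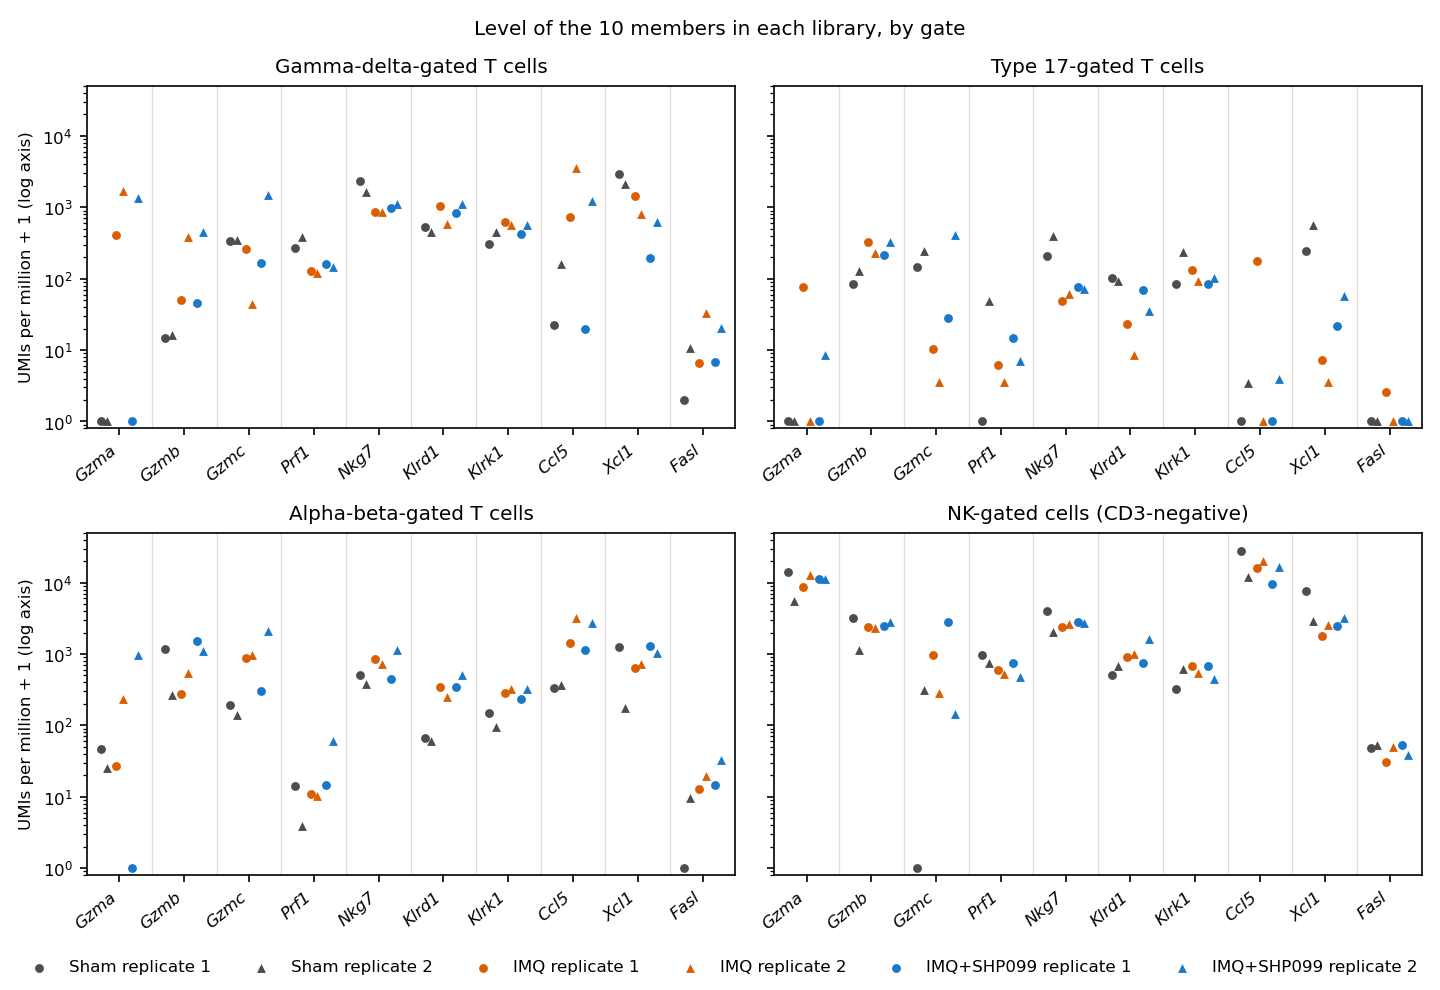
CPM + 1 (vertical axis, log scale) of the 10 genes in the summed γδ, type 17, αβ and NK cells of each library; colours are the groups, circles replicate 1 and triangles replicate 2. Prf1 lies higher in every γδ sum than in any type 17 or αβ sum, and Gzma and Ccl5 lie highest in NK cells.

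Type 17 cells were below αβ cells in 5 genes. Against αβ cells, Ccl5 was lower by 6.49 ± 1.10 on the log2 scale (adjusted p = 0.000905), Nkg7 by 2.70 ± 0.45 (adjusted p = 0.000817), Xcl1 by 3.78 ± 0.90 (adjusted p = 0.0144), Gzmc by 3.14 ± 0.83 (adjusted p = 0.0281) and Klrd1 by 2.44 ± 0.56 (adjusted p = 0.0111). When the cells with at least 2 UMIs over the NK list were left out, Xcl1 (adjusted p = 0.280), Gzmc (adjusted p = 0.679) and Klrd1 (adjusted p = 0.132) no longer passed, while Ccl5 and Nkg7 did. Gzmb in type 17 cells stood at 82.2 and 127 CPM (Sham), 329 and 228 (IMQ) and 213 and 323 (IMQ+SHP099). Leaving out the NK-list cells also added calls: Ccl5 was then lower in γδ than in αβ cells by 3.53 on the log2 scale (adjusted p = 3.59e-05), and Gzmb was lower in γδ than in type 17 cells by 3.41 (adjusted p = 1.23e-05) and lower in type 17 than in αβ cells by 1.71 (adjusted p = 0.00665). Gzma, the tryptase granzyme A, passed against γδ cells in edgeR's test (higher in γδ cells by 4.23 ± 1.26, adjusted p = 0.0208), but without the NK-list cells the difference was -2.26 (adjusted p = 0.131).

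Other killer genes were followed as lists by role, with 51 of 52 found in the files. Between γδ and αβ cells, 8 of the 41 tested were higher and 12 lower, where 11.0% and 10.5% of all genes were. Klrb1b, an inhibitory lectin-like receptor, was higher in γδ cells by 5.19 ± 0.47 and Il12rb2, a chain of the IL-12 receptor, by 2.70 ± 0.62, whereas Klrg1, a receptor of effector cells, differed by -5.48 ± 0.74, the T-box factor Tbx21 by -3.04 ± 0.55, the granule release factor Stx11 by -2.76 ± 0.42 and the Ly49 receptor Klra7, itself on the NK list, by -2.69 ± 0.49 (adjusted p of 0.00393 or less for each). In type 17 against αβ cells, 1 of the 41 was higher and 17 were lower, where 2.69% and 3.82% of all genes were. Among those lower were Ifng by -5.65 ± 0.55 (adjusted p = 4.1e-06) and the co-receptor Cd160 by -3.63 ± 0.46 (adjusted p = 5.2e-05). γδ cells exceeded type 17 cells in 20 of the 41 genes and were below them in 6, where 13.5% and 13.6% of all genes were. Fcer1g, a signalling adaptor, was higher by 3.66 ± 0.55 (adjusted p = 0.000107). The remaining granzymes did not pass the filter on low counts in these comparisons, and Gzmd, Gzme, Gzmg and Gzmn gave 0 UMIs in the T cell populations.

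The next comparison asked what IMQ changed in γδ T cells. The transcripts of Nkg7, Prf1, Xcl1 and Gzmc were lower and those of Klrd1, Klrk1, Ccl5, Gzmb and Gzma higher in both IMQ libraries than in either Sham library, but no gene of the list passed the test. With edgeR, 0 of 10 passed the adjusted threshold, where 0.0126% of 7922 genes did. At an unadjusted p under 0.05 there were 5 of 10, where 8.62% of all genes were, and DESeq2 called 1 of the 10, Gzma, whose Sham libraries were both at 0. Among all tested genes, 15.0% were higher without overlap between the groups and 26.6% were lower, so 4 of 10 lower is a share nearer to the background than 5 of 10 higher.

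Nkg7, a granule membrane protein needed for granule release, stood at 2342 and 1618 CPM in Sham γδ cells and at 850.1 and 853 in IMQ. The fitted log2 change was -1.09 ± 0.38 (edgeR, adjusted p = 0.437), and that of Prf1 was -1.23 ± 0.36 (adjusted p = 0.322). A UMI of Nkg7 was found in 93.0% and 85.0% of Sham γδ cells and in 72.7% of them in either IMQ library. Since depth differed between libraries, each cell was also thinned to 1500 UMIs, and Nkg7 was then found in 89.0% and 78.3% in Sham and in 65.2% and 58.7% in IMQ. Exact binomial 95% intervals of such shares were at most 15.1 percentage points to either side after thinning, and they cover counting error only.

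Xcl1, the chemokine ligand of XCR1 on cross-presenting dendritic cells, was spread widely over Sham γδ cells. It stood at 2885 and 2092 CPM (Sham), 1431 and 805 (IMQ) and 197 and 629 (IMQ+SHP099). A UMI of it was found in 82.5% and 74.3% of Sham γδ cells, 35.9% and 20% of IMQ cells, and 14.8% and 23.02% of IMQ+SHP099 cells (75.8%, 62.3%, 32.1%, 13.0%, 20% and 27.9% in the same order after thinning). All 4 treated libraries lay below both Sham libraries, in level and in share. The IMQ levels leaned on few cells: the 5 highest cells held 13.5% and 23.4% of the Xcl1 UMIs in Sham but 51.8% and 94.0% in IMQ, and without them the levels were 2544 and 1711 (Sham), 705 and 53.4 (IMQ) and 136 and 374 (IMQ+SHP099).

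Klrd1 stood at 531 and 456 CPM in Sham γδ cells and at 1029 and 576 in IMQ, a fitted log2 change of 0.86 ± 0.42 (edgeR, adjusted p = 0.626). After thinning, a UMI of it was found in 51.9% and 51.4% of Sham cells and in 72.9% and 58.7% of IMQ cells. Klrk1 stood at 309 and 455 CPM in Sham and 612 and 565 in IMQ. Both receptors were thus higher, and Nkg7 and Prf1 lower, within the same IMQ γδ sums.

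**Figure D3:**
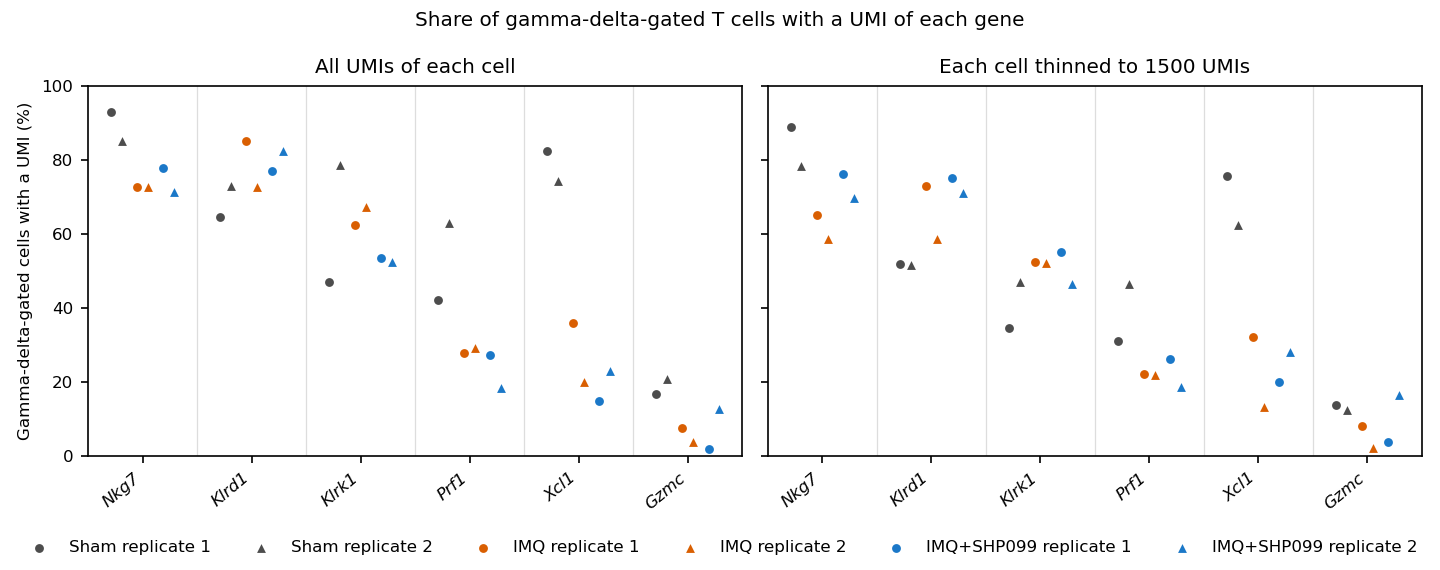
Share of γδ T cells with a UMI (percent, vertical axis) of Nkg7, Klrd1, Klrk1, Prf1, Xcl1 and Gzmc in each library, over all UMIs and after thinning each cell to 1500 UMIs; colours are the groups and points are libraries. For Xcl1 the Sham libraries lie at 62.3% or more and the treated libraries at 35.9% or less at both depths, while Klrd1 after thinning is lowest in the Sham libraries.

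Gzma and Ccl5 had high values in γδ sums that came from very few cells. Gzma gave no UMI in either Sham library (0 of 372 and 0 of 140 cells, where a count of 0, read as under 3, allows up to 0.806% and 2.14% of cells with a UMI and 2.90 and 4.20 CPM), 402 and 1680.1 CPM (IMQ) and 0 and 1328 (IMQ+SHP099). Of these, the 287 UMIs of IMQ replicate 1 lay in 3 of 256 cells and the 315 of IMQ replicate 2 in 3 of 55. Every UMI of both, and 414 of the 416 in IMQ+SHP099 replicate 2, fell in cells that also had at least 2 UMIs over the NK list. Ccl5, a chemokine that draws in leukocytes, stood at 21.3 and 161 CPM (Sham), 723 and 3547 (IMQ) and 18.6 and 1207 (IMQ+SHP099), and 504 of 516 and 612 of 665 of its UMIs in the IMQ libraries were in NK-list cells. Without those cells the log2 change of Ccl5 with IMQ was 1.33 (adjusted p = 0.834), against 4.73 ± 1.55 (adjusted p = 0.393) with them, and that of Gzmb was 0.16 (adjusted p = 0.988) against 3.91 ± 1.14 (adjusted p = 0.313).

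The epidermal make-up of the γδ population was followed by splitting it at a UMI of Trdv4 or Tcrg-V5. Cells with such a UMI were 78.8% and 62.1% of it (Sham), 40.2% and 38.2% (IMQ) and 42.9% and 37.3% (IMQ+SHP099). Within these cells alone, Nkg7 stood at 2407 and 1880.02 CPM in Sham and at 739 and 667 in IMQ, and Prf1 at 287 and 458 against 156 and 106. Xcl1 stood at 2906 and 2502 (Sham), 2338 and 1561 (IMQ) and 230.1 and 390.3 (IMQ+SHP099). Both IMQ levels of these 3 genes lay below both Sham levels in this subset. The share of all genes that did so there was not computed, and in the whole γδ population it was 26.6%. The other genes of the list are not reported for the subset. The gap in Xcl1 between Sham and IMQ was narrower there than that between IMQ and IMQ+SHP099. The subset held only 103 and 21 cells in IMQ, and how its Xcl1 UMIs spread over them is not reported here. In the whole γδ population, 5 cells held 51.8% and 94.0% of the Xcl1 UMIs in IMQ. In γδ cells without a UMI of Trdv4 or Tcrg-V5, Xcl1 was 2798 and 1205 (Sham), 747 and 395 (IMQ) and 172 and 763 (IMQ+SHP099), so that the latter 2 groups overlapped.

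The comparison of IMQ+SHP099 with IMQ asked what the inhibitor moved in the same cells. The 2 IMQ libraries enter both this contrast and the one against Sham. In γδ cells edgeR called 0 of 10 genes, where it called 0% of 7922; at an unadjusted p under 0.05 there were 2 of 10, where 2.22% of all genes were, and DESeq2 called 0. The γδ sum of IMQ+SHP099 replicate 1 stood apart: 5 keratinocyte markers reached 3889 CPM in it, 12.6% of their level in keratinocytes, against 0.467% to 4.86% in the other γδ sums. A limit of 0.5% on other lineages left 326 of its 338 cells but 448023 of its 700398 UMIs. The level of Xcl1 was lower without overlap, by 1.48 ± 0.57 on the log2 scale (adjusted p = 1.00), while 13.0% of all genes were lower in this way. At the 0.5% limit Xcl1 stood at 1540 and 1204 CPM (IMQ) and 292 and 651 (IMQ+SHP099), still without overlap, but the groups overlapped without the 5 highest cells and in the share of cells with a UMI. Prf1 and Nkg7 were higher without overlap, by small margins, where 14.5% of all genes were. Both overlapped after thinning to 1500 UMIs (Prf1 159 to 175 CPM in IMQ and 140 to 192 in IMQ+SHP099, Nkg7 1011 to 1116 and 1078 to 1508) and at the 0.5% limit. Without IMQ+SHP099 replicate 2, Gzma (adjusted p = 0.00262) and Ccl5 (adjusted p = 0.0313) were called lower, both of them genes whose UMIs in the IMQ libraries lay in a few NK-list cells.

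In type 17 cells 3 of the 6 genes tested fell with IMQ, where 0.147% of 5444 genes did. Xcl1 stood at 246 and 572 CPM (Sham), 6.25 and 2.54 (IMQ) and 20.7 and 56.4 (IMQ+SHP099). It fell by 6.13 ± 0.65 on the log2 scale with IMQ (edgeR, adjusted p = 0.000904), and the groups did not overlap. Nkg7 stood at 205 and 389.6 (Sham), 47.9 and 60.9 (IMQ) and 75.7 and 69.7 (IMQ+SHP099), and fell by 2.39 ± 0.45 (adjusted p = 0.0376). Gzmc, granzyme C, stood at 144 and 239.8 (Sham), 9.37 and 2.54 (IMQ) and 27.5 and 402 (IMQ+SHP099), and fell by 4.56 ± 0.91 (adjusted p = 0.0471).

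The part of Trdv4-bearing cells in the type 17 population was 38.5% and 21.7% (Sham), 45.8% and 10.3% (IMQ) and 35.3% and 43.2% (IMQ+SHP099), with overlap between all groups.

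These calls rest on few cells and few UMIs. The Sham values of Xcl1 came from 12 UMIs in the 13 cells of replicate 1 and 229 UMIs in the 69 cells of replicate 2, of which 5 cells held 203, and those of Gzmc came from 7 and 96 UMIs, all in at most 5 cells per library. Without Sham replicate 2 none of the 3 passed (Xcl1 -5.24, adjusted p = 0.0749; Nkg7 -1.72, adjusted p = 0.542; Gzmc -3.98, adjusted p = 0.557). Nkg7 also lost its call without IMQ replicate 1 (adjusted p = 0.411) or IMQ replicate 2 (adjusted p = 0.147), and Gzmc without Sham replicate 1 (adjusted p = 0.109). Other rules for choosing the cells ended the call of Gzmc in 5 cases (adjusted p from 0.0522 to 0.222) and that of Nkg7 in 3 (adjusted p from 0.0505 to 0.203), and DESeq2 did not call Gzmc (adjusted p = 0.152). With the population rules and sums applied to cells thinned to 1500 UMIs, the fitted Gzmc change turned to 3.38 ± 4.05. Replicate 1 of Sham (4 type 17 cells) and of IMQ+SHP099 (8 cells) were left out of that fit, as sums of under 10 cells. Sham was thus left with replicate 2 alone. Gzmb, by contrast, was higher in both IMQ libraries, with a log2 change of 1.48 ± 0.46 that did not pass in the main fit (adjusted p = 0.248). Its change in the fit of thinned cells, which lacked Sham replicate 1, was larger, at 4.27 ± 0.81. Klrd1 was lower at -2.24 ± 0.57 in the main fit (adjusted p = 0.149). Without overlap, 4 of the 6 genes were lower (24.1% of all genes) and 1 was higher (18.5%). Among the 27 other killer genes tested in type 17 cells, 1 passed with IMQ and was lower, where 0.147% of all genes were lower. It was Fcer1g, at -3.03 ± 0.61 (edgeR, adjusted p = 0.0471), near the threshold of 0.05. Whether its call holds without single libraries is not reported here.

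With SHP099 added, Gzmc rose in type 17 cells by 4.96 ± 0.89 on the log2 scale (edgeR, adjusted p = 0.04999), which made 1 of 6 genes called higher, where 0.0184% of all genes were. Of the 271 Gzmc UMIs behind the value in IMQ+SHP099 replicate 2, a single cell held 202, and without that library the change was 1.84 (adjusted p = 0.750). The call was also lost with DESeq2 (adjusted p = 0.252), in a fit of the compared groups alone (adjusted p = 0.145), with the replicate block (adjusted p = 0.0524) and under 5 other rules for choosing the cells (adjusted p from 0.0625 to 0.769). Xcl1 was higher by 3.06 ± 0.66 (adjusted p = 0.169), and its 38 UMIs in IMQ+SHP099 replicate 2 lay for 35 in 1 cell. Xcl1, Nkg7, Klrd1 and Gzmc were all higher without overlap in IMQ+SHP099 than in IMQ, where 11.6% of all genes were. For Nkg7 both IMQ+SHP099 libraries stayed well below both Sham libraries.

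In αβ cells the fitted change with IMQ was upward for 7 of the 8 genes tested, though none passed. Klrd1 stood at 64.8 and 59.5 CPM (Sham), 339 and 247 (IMQ) and 345 and 502 (IMQ+SHP099), with no overlap between Sham and the 4 treated libraries. Ccl5 stood at 330.3 and 369 (Sham), 1412 and 3170.4 (IMQ) and 1146 and 2756 (IMQ+SHP099), and again Sham was below all treated libraries. Neither passed over 3830 genes in edgeR's test (Klrd1 2.47 ± 0.42, adjusted p = 0.0749; Ccl5 2.90 ± 0.53, adjusted p = 0.0911). In all, 0 of 8 genes tested were called, where 0.0783% of all genes were, while 4 of 8 had an unadjusted p under 0.05, where 8.64% of all genes did, and DESeq2 called both Klrd1 (adjusted p = 0.00116) and Ccl5 (adjusted p = 1.86e-05).

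Klrk1 stood at 149 and 92.9 CPM (Sham), 280.1 and 322 (IMQ) and 235 and 326 (IMQ+SHP099) in αβ cells, a log2 change with IMQ of 1.55 ± 0.42 (edgeR, adjusted p = 0.327). Nkg7 stood at 512 and 380.1, then 840.2 and 733, then 442 and 1138, at 1.00 for IMQ (adjusted p = 0.585). A UMI of Klrk1 was found in 22.7% and 15.9% of Sham αβ cells and in 38.8% to 46.7% of those in the treated libraries. That of Klrd1 was found in 13.6% and 11.5% against 39.0% to 50.7%, and in 2.50% and 7.08% against 23.3% to 37.5% after thinning to 1500 UMIs. Higher without overlap with IMQ were 5 of the 8 genes, where 12.8% of all genes were. The share of NK-list cells was higher in the same libraries, and without those cells the change was 2.67 for Klrd1 (adjusted p = 0.0814) and 2.26 for Ccl5 (adjusted p = 0.256).

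Within the αβ population the genes divided by subset. Cells with a Foxp3 UMI (76 over the 6 libraries) carried Gzmb in every library, from 349 to 3396 CPM, and gave 0 UMIs of Gzma, Klrd1, Klrk1, Xcl1 and Fasl. CD8 cells (55 over the 6 libraries) carried Ccl5 at 1087 to 18443 CPM, against 0 to 168 in Foxp3 cells. CD4 cells (86 over the 6 libraries) gave 0 UMIs of Xcl1 and of Prf1, but Prf1 gave only 27 UMIs in the whole αβ population. The cells with neither a CD4 nor a CD8 UMI carried Xcl1 at 1768 and 363 CPM (Sham), 840.1 and 993 (IMQ) and 1896 and 1857 (IMQ+SHP099). Over the whole αβ population, NK-list cells held 154 of 193 and 66 of 120 Xcl1 UMIs in Sham and 254 of 322 and 61 of 154 in IMQ. In IMQ+SHP099 they held 72 of 93 and 233 of 267. In the CD8 subset there were 2 and 6 cells (Sham), 27 and 5 (IMQ) and 2 and 13 (IMQ+SHP099), so no subset was compared between groups.

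**Figure D4:**
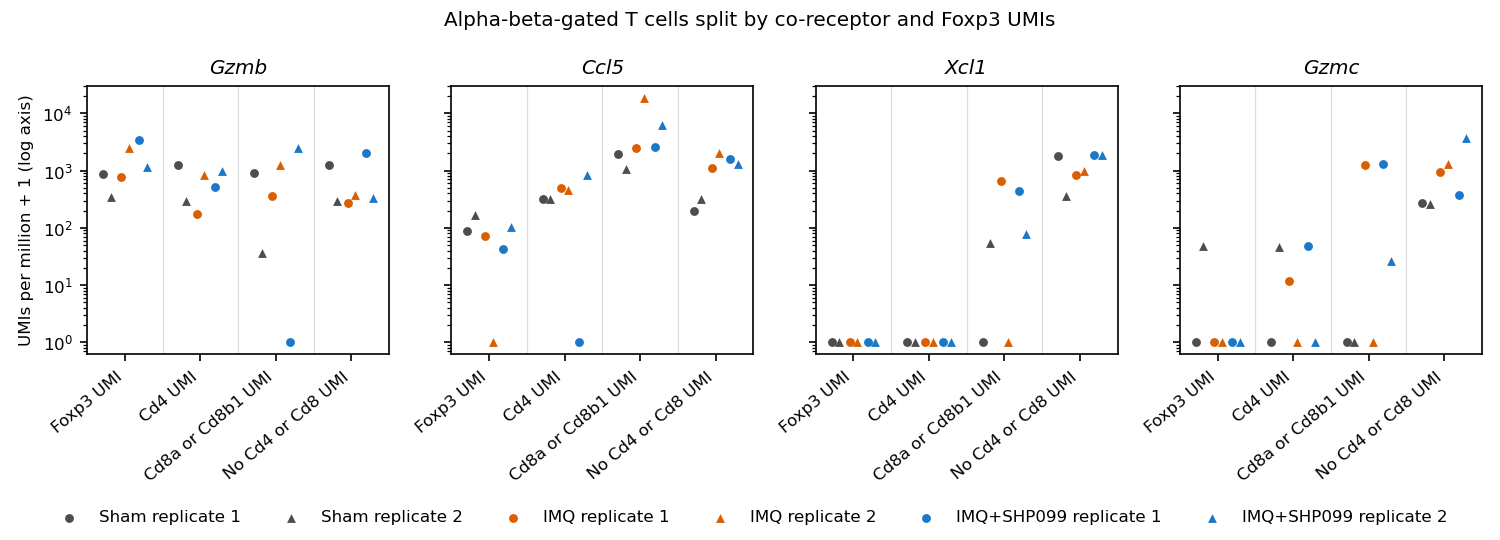
CPM of Gzmb, Ccl5, Xcl1 and Gzmc in subsets of αβ T cells of each library (colours are the groups, points are libraries; cells with a Foxp3 UMI overlap the other subsets). Gzmb is present in Foxp3 cells of every library, Xcl1 is at 0 in CD4 and Foxp3 cells, and Ccl5 lies highest in CD8 cells.

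SHP099 on top of IMQ left no call in αβ cells: edgeR gave 0 of 8, where it gave 0% of 3830 genes, with 1 of 8 at an unadjusted p under 0.05 (1.93% of all genes) and 0 by DESeq2. Gzmb, Xcl1 and Klrd1 were higher without overlap, where 18.6% of all genes were. Of the Xcl1 UMIs, NK-list cells held 72 of 93 and 233 of 267 in IMQ+SHP099, and 254 of 322 and 61 of 154 in IMQ. The log2 change of Gzmb was 1.62 ± 0.67 (adjusted p = 1.00), and the 5 highest cells held 100% and 77.1% of its UMIs in the 2 IMQ+SHP099 libraries.

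A difference of the IMQ change between γδ and αβ cells was tested as an interaction, in 1 edgeR fit over all 3 T cell populations. Of the 10 genes 1 passed, where 0.0406% of 7390 genes did. Gzmc stood at 334 and 346 CPM in Sham γδ cells and 258 and 42.7 in IMQ, but at 194 and 141 in Sham αβ cells and 869.8 and 953 in IMQ, and the 2 changes differed by -3.91 ± 0.64 on the log2 scale (adjusted p = 0.0365). The 5 highest cells held 84.5% to 99.5% of the Gzmc UMIs of each Sham and IMQ αβ sum. The call was lost without the NK-list cells (-2.29, adjusted p = 0.491), without Sham replicate 1 (adjusted p = 0.0574), without Sham replicate 2 (adjusted p = 0.223), without a limit on other lineages (adjusted p = 0.523) and with a mitochondrial limit of 5% (adjusted p = 0.111). With cells thinned to 1500 UMIs the difference shrank to -0.37 (adjusted p = 0.966). Nkg7, at -2.09 ± 0.51 (adjusted p = 0.289), Klrd1, at -1.61 ± 0.48 (adjusted p = 0.445), and Gzmb, at 4.14 ± 1.18 (adjusted p = 0.429), did not pass.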

How the data were processed

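Per the labels, the 6 libraries were made with 10x 3′ chemistry from unsorted dorsal skin cells, and the authors counted reads with Cell Ranger against GRCm38 (mm10). The deposited values are raw UMI counts per gene and barcode, with no normalization. Barcodes under 100000 UMIs, 6500 genes and 10% mitochondrial UMIs were kept, after the study's methods. T cells had at least 2 UMIs over Cd3d, Cd3e and Cd3g and under 1% of UMIs in each of a keratinocyte, a fibroblast and a myeloid list. Type 17 cells had at least 2 UMIs over a marker list that included Cd163l1, Il23r, Ccr6, Il17a and Il17f, and not every gene of it is reported here. Of the rest, γδ cells had Trdc at 1 or more and not below Trac, and αβ cells had Trac and no Trdc. No doublet caller was run; the limit on other lineages took its place, and cells with NK genes stayed in.

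Counts were summed per library and population (sums of under 10 cells left out) and fitted with edgeR 4.0.16 in R 4.3.3 (filterByExpr, TMM, quasi-likelihood test, group as the only term, or library block and population). Benjamini-Hochberg adjustment ran over all genes tested, at 0.05. The library took the place of the single cell that the study's rank-sum test used. DESeq2 1.42.0 was an alternative. Levels are CPM, the UMIs of a gene per 1000000 UMIs summed over a population in a library. Python 3.11.15 with scipy 1.17.1 gave exact Clopper-Pearson 95% intervals; a count of 0 was read as under 3 counts. Promoter windows were RefSeq's, on GRCm38.p6.

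The 10 genes are always described. Of the other killer gene lists, up to 6 genes per comparison were named, those with adjusted p under 0.05 and the largest fold change first. The genes, lists and populations were chosen with earlier results of these data known. The alternatives without NK-list cells and without the 5 highest cells were chosen after seeing the data.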

Additional observations from a re-analysis of the deposited data

Results flagged for a closer look

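Differences between populations drew attention in 3 genes with IMQ and in Xcl1 with SHP099. The change of Gzmc with IMQ differed between γδ and αβ cells by -3.91 on the log2 scale, the only difference here that was tested. That call was lost under 6 alternatives, and with cells thinned to 1500 UMIs the difference was -0.37 (adjusted p = 0.966). The others were not tested, and stand out because both libraries of the 2 groups moved one way in one population and the opposite way in the other. As the log2 ratio of mean levels, IMQ against Sham, Klrd1 was 3.40 higher in γδ than in type 17 cells. Between type 17 and αβ cells the same ratio differed by -4.94 for Klrd1, by -3.27 for Nkg7 and by -7.45 for Gzmc. The Gzmc levels in type 17 cells rested on 7 and 96 UMIs in Sham and 18 and 1 in IMQ. With cells thinned to 1500 UMIs the fitted Gzmc change reversed in both populations, to 3.38 in type 17 and -0.36 in αβ cells. The type 17 fit then lacked Sham replicate 1, which was left with 4 cells. For Xcl1, the ratio of IMQ+SHP099 to IMQ in γδ cells differed by -4.57 from that in type 17 cells and by -2.22 from that in αβ cells.

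Signal also appeared in cells outside the comparisons. T cells that met none of the 3 population rules (242 cells) held Gzma at 1578 CPM or more in the 4 IMQ-treated libraries. Gzmb stood at 338 or more there, and each gene at 0 and 41.8 in Sham. These populations were small, from 13 to 68 cells per library. Over the 6 libraries, the median share of them with a UMI was 4.37% for Gzma (range 0% to 30.3%). For Gzmb it was 13.0% (range 0% to 36.4%). Some of these levels thus rest on very few cells, and whether such cells carried NK genes is not reported here. Keratinocytes held Gzmc at 0.880 to 1.80 CPM in the IMQ-treated libraries, against 0.109 and 0.315 in Sham. Of the other genes, only Ccl5 went higher in keratinocytes, to 3.70 CPM in IMQ replicate 1, while Xcl1 reached 0.845 and Gzma 0.670. Whether such a level of Gzmc is background was not tested, and it is not read as expression. With 2 libraries per group, no library could be tested for standing apart from its group.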

How the results depend on the processing

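The counts of called genes moved with the processing. Without a filter on low counts, the IMQ contrast called 3 genes in γδ, 6 in type 17 and 5 in αβ cells, and the SHP099 contrast 2, 4 and 1. The same setting called 7 between γδ and αβ cells, 9 between type 17 and αβ cells, and 5 in the interaction. DESeq2 called 1 (γδ) and 2 (αβ) with IMQ and 0 in type 17 cells with SHP099. Fits of only the groups compared gave 1, 3 and 0 for the same contrasts. With cells thinned to 1500 UMIs the counts were 3 (αβ, IMQ) and 8 (γδ against αβ). Sums of under 10 cells were then left out. These were type 17 cells of Sham replicate 1 (4 cells) and IMQ+SHP099 replicate 1 (8), and αβ cells of IMQ+SHP099 replicate 1 (9). The type 17 contrasts and the αβ contrast with SHP099 thus had a group left with replicate 2 alone, and their counts are not given.

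A type 17 rule without Il17a and Il17f gave 1 in αβ cells with IMQ, 0 in type 17 cells with SHP099 and 3 between type 17 and αβ cells. Sham replicate 1 then held 8 type 17 cells and was left out, so the count in type 17 cells with IMQ is not given. No limit on other lineages gave 1 in type 17 cells with IMQ, 0 with SHP099, 2 between γδ and αβ cells and 0 in the interaction; a limit of 0.5% gave 2 in type 17 cells with SHP099 and 2 in the interaction. A mitochondrial limit of 5% gave 1, 0 and 0 (type 17 with IMQ, with SHP099, interaction). At least 3 CD3 UMIs gave 0 in type 17 cells with SHP099, and so did leaving out NK-list cells, which also gave 0 in the interaction.

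Leaving out 1 library at a time gave 0 to 0 calls in γδ cells with IMQ and 0 to 2 with SHP099, 0 to 4 and 0 to 2 in type 17 cells (0 without Sham replicate 2 and without IMQ+SHP099 replicate 2), 0 to 1 and 0 to 0 in αβ cells, 4 to 5 between γδ and αβ, 2 to 6 between type 17 and αβ, 6 to 8 between γδ and type 17, and 0 to 2 in the interaction. An arm left with 1 library takes its spread from the other libraries.

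Of the gene values with an unadjusted p under 0.05, 468 kept direction and side of the threshold under the other settings, 53 passed in addition, 34 no longer passed and 5 reversed. Thinning turned Gzmc to 3.38 in type 17 cells (without Sham replicate 1) and to -0.36 in αβ cells with IMQ, and Gzma to -1.85 in the interaction. Leaving out NK-list cells turned Gzma to -0.84 in the interaction and to -2.26 between γδ and type 17 cells; nearly all γδ Gzma UMIs were in the cells left out. The cause of the other shifts was not tested.

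Replicate numbers are shared between groups. Deviations of same-numbered libraries correlated at 0.0343 to 0.259, all positive but not above 0.1 in every pair. These values do not settle whether the numbers pair the libraries, and the main fits do not use them. With the replicate block, αβ cells had 2 calls with IMQ (Klrd1 adjusted p = 0.0307, Ccl5 adjusted p = 0.0272) and type 17 cells 0 with SHP099 (Gzmc 4.17, adjusted p = 0.0524). With IMQ in type 17 cells Gzmc left (-3.85, adjusted p = 0.0572) and Klrd1 joined (-2.68, adjusted p = 0.0375). The block changed no other call among the treatment contrasts. Depth limits all of this: type 17 sums held as few as 13 cells, and after thinning γδ cells of IMQ+SHP099 replicate 1 numbered 80 of 338.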

Other observations

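Much of the Gzmc of this skin lay outside the T cell populations. In each library 6 to 8 CD3-negative cells of no named population, picked after their values were seen for having at least 10 Gzmc UMIs, held between 16.6% and 76.4% of the library's Gzmc UMIs (489 to 1679 UMIs). All 40 such cells had a UMI of Ctsw, a cathepsin of killer cells, and of the adaptor Fcer1g, 37 of Il2rb, 35 of Xcl1 and 30 of the T cell receptor constant segment Trbc1. By contrast 9 had a UMI of Ncr1, 2 of Gzmb and 0 of Gzma. They are given no cell type name. In Sham, Gzmc was also high in the T cells that met none of the 3 rules, at 7878 and 10440.7 CPM (13 and 35 cells), against 571 to 1445 in the treated libraries. These Sham levels came from few cells: 2 cells held all 224 Gzmc UMIs of replicate 1, and 7 cells held 1492 of the 1498 of replicate 2.

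Receptors and ligands that pair with these genes lay in other cells. Xcr1, the receptor of Xcl1, stood at 2.58 and 70.7 CPM in Sham myeloid cells, 7.58 and 3.50 in IMQ, and 0 in both IMQ+SHP099 libraries. Each count of 0 is read as under 3, out of 924200 and 755532 myeloid UMIs. A level like the 2.58 of Sham replicate 1 could thus not be told apart from these. Ccr1, a receptor of Ccl5, stood at 3.59 and 30.4 (Sham), 214 and 303 (IMQ) and 9.43 and 372 (IMQ+SHP099) in neutrophils. H60c, a ligand of NKG2D, was found in keratinocytes of every library at 32.4 to 103 CPM. Serpinb9, an inhibitor of granzyme B, stood at 200.1 to 374 in NK cells and 39.2 to 86.2 in γδ cells.

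The genes outside the list whose level most resembled the sum of the 10 genes were Ctsw (Pearson r = 0.882), Atp1b1 (0.867), Rasgrp4 (0.855), Plscr1 (0.848) and Sema6d (0.848), over 18 sums that share libraries and depth, among 5692 genes compared. This is a description with no test.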
